A study of Homo sapiens with 8 samples.

Results

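The 38 genes described here serve glucose use and the response to low oxygen. They comprise the transporter SLC2A1, enzymes and regulators of glycolysis, genes of pyruvate and lactate handling, subunits and hydroxylases of the hypoxia-inducible factors (HIFs), and genes that HIFs are known to switch on. The genes were chosen by name, and a probe was taken as a member's where its RefSeq accession belonged to the member's symbol. By that rule 37 of the 38 genes had a probe, and 36 genes were bright enough to be tested, of 12123 tested genes in all.

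KYSE850, a human cell line established from an esophageal squamous cell carcinoma, was profiled for mRNA on 8 Agilent arrays with a single dye. Cells on 4 arrays had received a control siRNA, and those on the other 4 an siRNA against KHSRP, an RNA-binding protein that acts on splicing, mRNA decay and the maturation of microRNAs. Such RNAs direct the breakdown of mRNAs with a matching sequence. All cells were the same line without any other treatment named in the labels, which give no dose, time or oxygen level and do not say which KHSRP siRNA was used or whether the replicates were separate cultures, so that the p-values measure only the spread between these samples.

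In glycolysis, glucose enters the cell through transporters, is trapped and split at the cost of ATP, and is then oxidized to pyruvate with a gain of ATP. Lactate dehydrogenase can turn pyruvate into lactate, which leaves the cell through monocarboxylate transporters. HIFs are transcription factors whose alpha subunits are hydroxylated and degraded when oxygen is present. When oxygen is low they bind short DNA motifs containing ACGTG or GCGTG and raise the mRNA of many glycolytic enzymes, of growth factors such as VEGFA and of their own hydroxylases, and tumor cells often show this program with oxygen present.

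Each log2 level below is the log2 signal of a probe relative to the 75th percentile of its own array, so that levels of the same probe can be compared between arrays. The signal at that percentile was 87.7 to 117, and it was lower on the slide that held replicates 3 and 4 of both groups (87.7 to 98.9) than on that of replicates 1 and 2 (110.1 to 117). No spot was saturated. KHSRP itself had log2 levels of 6.03, 5.81, 6.39 and 6.08 on control siRNA replicates 1 to 4 and of 2.52, 2.58, 2.88 and 2.85 on KHSRP siRNA replicates 1 to 4, an order kept for all values below. Its log2 fold change was -3.37 (SE 0.16), with an adjusted p of 5.9e-05 by limma with Benjamini-Hochberg adjustment over 18760 tested probes, and the groups did not overlap (exact permutation p = 0.0286, two-sided, the smallest that 4 arrays against 4 allow).

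With KHSRP siRNA, 2 of the 36 tested genes rose and none fell at an adjusted p under 0.05, here termed called. The pair that rose was NDRG1, a stress protein induced by low oxygen (log2 fold change 0.61, 1.53-fold), and EGLN1, the main oxygen-sensing HIF hydroxylase (0.49, 1.41-fold). They made 5.56% of the tested members, against 1.92% of all tested probes called higher and 3.62% called lower. At an unadjusted p under 0.05, limma found 8 members, all higher, against 8.82% of all tested probes in that direction and 10.8% lower. The paper's methods name Student's t-test for subgroup differences in general, while the paper listed its array genes by fold change. That t-test, here termed the methods' t-test, found 9 members, all higher, against 8.66% and 11.1% of all tested probes. Of the 9, 3 passed after Benjamini-Hochberg adjustment. In 8 members the groups did not overlap, namely HK2, PFKL, LDHA, EPAS1, EGLN1, NDRG1, BNIP3 and P4HA1, all of them higher with KHSRP siRNA. That was 22.2% of the tested members, beside 6.09% of all tested probes without overlap and higher, and 8.69% without overlap and lower.

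Same-numbered arrays of the groups deviated together when the numbers of the series matrix were used, so that 1 control and 1 KHSRP siRNA array form a pair. Pairs 1 and 2 hold replicates 1 and 2 of both groups, pair 3 holds control siRNA replicate 3 with KHSRP siRNA replicate 4, and pair 4 holds control siRNA replicate 4 with KHSRP siRNA replicate 3, by the numbers of the scanner files. With the pair as a block in limma, 11 members were called, and with the numbers of the scanner files as the block 0 were. The numbering was chosen on these same values, which itself lowers the spread left in the fit. Each adjusted p with the pair as a block, here and below, depends on that choice. The 10 that were higher (27.8%, against 14.8% of all tested probes) were SLC2A1, PFKL, PFKFB3, LDHA, PDK1, EPAS1, EGLN1, NDRG1, BNIP3 and P4HA1. ENO2 was the only member called lower (2.78%, against 15.3% of all tested probes).

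**Figure D1:**
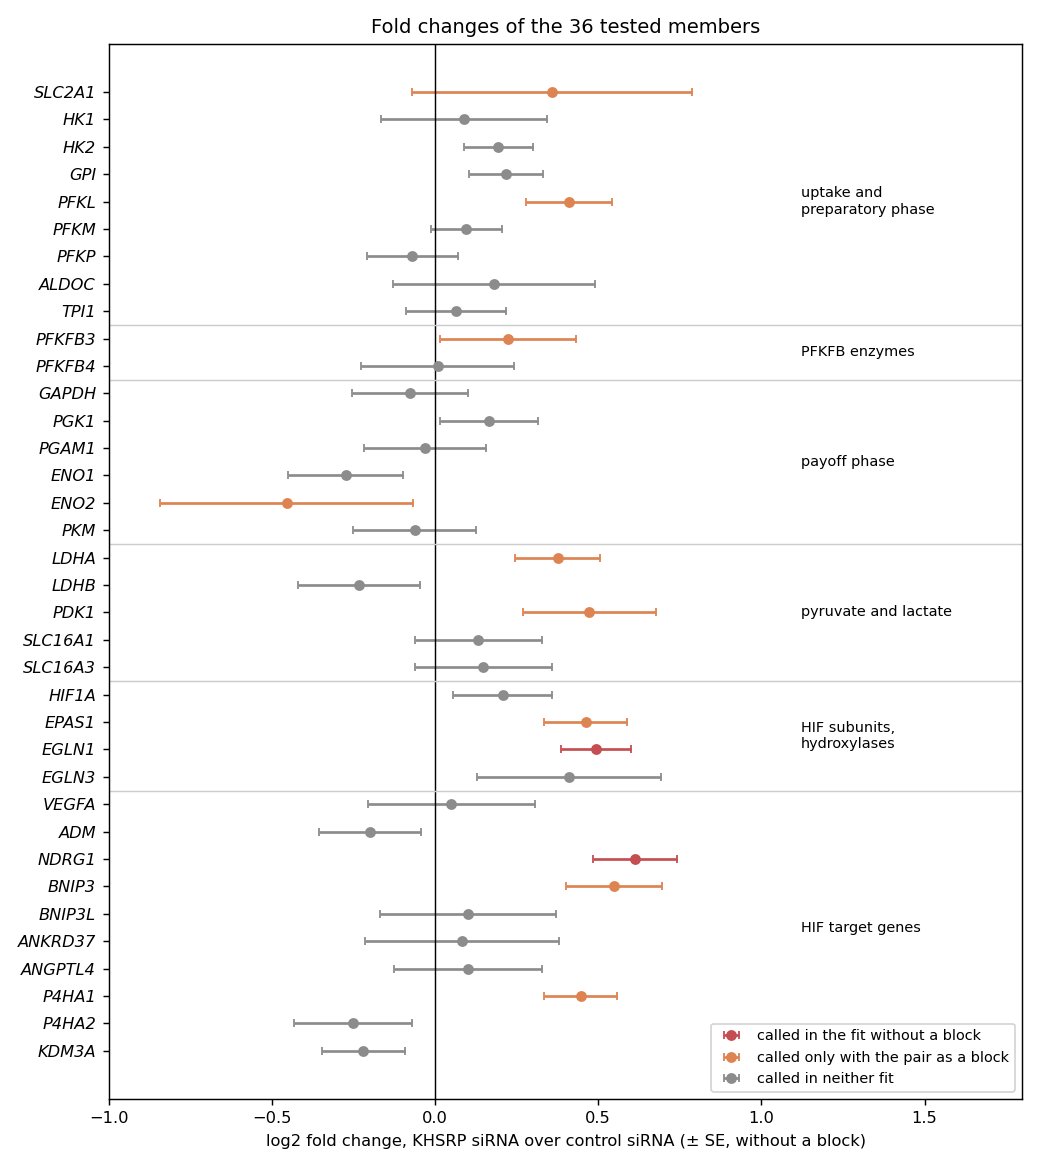
Log2 fold change (KHSRP siRNA over control siRNA, horizontal axis) of the 36 tested members, grouped by role, with the SE of the limma fit without a block as bars and the colour showing the fit in which a gene was called. EGLN1 and NDRG1 are called without a block, 9 further members only with the pair as a block, and 26 of 36 points lie above 0, of which TPI1, PFKFB4 and VEGFA turn sign with median scaling and ANKRD37 with normexp.

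Since HIFs bind ACGTG and GCGTG, the 250 bases before the annotated start of each gene were read for these letters on both strands (RefSeq, GRCh38.p14). Of 35116 such windows, 18.5% hold ACGTG. A window was found for 34 of the 38 members, and 23 of their 62 windows (37.1%) hold it, in 20 genes. With GCGTG added the shares are 43.2% of all windows and 59.7% of the members' windows. The stretches below show the motif in the non-overlapping members that hold ACGTG, and in ENO2, the member called lower with the pair as a block. Each is on the strand of its gene, with 1 match to ACGTG or its reverse complement CACGT in capitals. The LDHA stretch holds a further CACGT in small letters, 73 bases before the annotated start.
EGLN1, chr1:231422288-231422320: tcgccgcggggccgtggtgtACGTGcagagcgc
BNIP3, chr10:131982032-131982076: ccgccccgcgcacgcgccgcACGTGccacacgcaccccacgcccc
P4HA1, chr10:73096928-73096972: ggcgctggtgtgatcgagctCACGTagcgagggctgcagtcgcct
LDHA, chr11:18394457-18394501: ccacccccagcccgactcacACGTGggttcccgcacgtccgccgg
HK2, chr2:74834059-74834103: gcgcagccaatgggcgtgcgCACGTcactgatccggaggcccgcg
ENO2, chr12:6914442-6914486: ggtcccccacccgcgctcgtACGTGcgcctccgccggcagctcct
The first base of the capitals lies 13 bases before the annotated start in EGLN1, 133 in BNIP3, 86 in P4HA1 and in LDHA, 48 in HK2 and 118 in ENO2. In BNIP3 and LDHA the capitals are part of CACGTG, which reads the same on both strands and is also the binding motif of other factors. LDHA holds 5 matches to ACGTG in 1 window when both strands are counted, and HK2 holds 2 and 4 in its windows. Each CACGTG gives 1 match on each strand, so that these matches outnumber the sites. The 4 matches in HK2 all lie in CACGTG, unlike the 2 in the window of the stretch shown. The windows of PFKL and EPAS1 hold GCGTG but not ACGTG, and that of SLC2A1 holds neither. Members whose groups overlapped also hold ACGTG, among them GAPDH, ANKRD37, ALDOC and PGK1. The member list includes genes chosen as known HIF targets, and whether the motif goes with a change under KHSRP siRNA was not tested. A match is a description of the letters and not a measured binding site. No window was read for NDRG1, BNIP3L, VEGFA and SLC16A1.

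Glucose uptake and the preparatory phase, in which glucose is phosphorylated and split, were covered by 9 tested genes, 8 higher and 1 lower with KHSRP siRNA (TPI1 turned from higher to lower when arrays were scaled to their medians). None was called by limma without a block, and 1 had an unadjusted p under 0.05. The median log2 fold change was 0.18, beside 0.01 over all tested probes. PFKL, an isoform of phosphofructokinase, the main control point of the pathway, had log2 levels of 1.39, 1.14, 1.103 and 1.30 with control siRNA and 1.88, 1.48, 1.52 and 1.69 with KHSRP siRNA. All 4 KHSRP siRNA arrays lay above all 4 control arrays, and the log2 fold change was 0.41 with an SE of 0.13 (adjusted p = 0.121), with an adjusted p of 0.018 with the pair as a block. HK2, the hexokinase that many tumors raise, had log2 levels of 2.18, 2.14, 2.13 and 2.22 with control siRNA and 2.24, 2.50, 2.42 and 2.28 with KHSRP siRNA. Its groups were separated by a gap between control replicate 4 and KHSRP siRNA replicate 1 that was smaller than the spread within the KHSRP siRNA group, and the log2 fold change was 0.19 (adjusted p = 0.365, and 0.101 with the pair as a block). A second HK2 probe was not well above background on any array.

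SLC2A1, which encodes the main glucose transporter of proliferating cells, varied most of all members between arrays of the same group. Its log2 levels were 4.19, 3.33, 4.35 and 2.96 with control siRNA and 4.61, 3.58, 3.29 and 4.78 with KHSRP siRNA. Control replicates 1 and 3 and KHSRP siRNA replicates 1 and 4 were high, and the remaining arrays of both groups were low, so that the groups overlapped. The log2 fold change was 0.36 with an SE of 0.43 (adjusted p = 0.745). Within each pair, however, the KHSRP siRNA array was the higher by 0.42, 0.25, 0.43 and 0.33 on the log2 scale in pairs 1 to 4, and with the pair as a block the adjusted p was 0.0135. Without 1 array the log2 fold change between groups ran from 0.11 (control replicate 4 left out) to 0.62 (KHSRP siRNA replicate 3 left out). HK1, the housekeeping hexokinase, followed a similar order of arrays, with log2 levels of 2.88, 2.61, 2.89 and 2.21 with control siRNA and 3.12, 2.60, 2.13 and 3.10 with KHSRP siRNA. Its difference between groups was 0.09 on the log2 scale (adjusted p = 0.915), and it was higher in pairs 1 and 3 and lower in pairs 2 and 4.

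None of the remaining genes of the phase passed the test. GPI, which isomerizes glucose phosphate, had a log2 fold change of 0.22 and was higher in 4 of 4 pairs (adjusted p = 0.346, and 0.0512 with the pair as a block). The phosphofructokinase isoforms PFKM and PFKP had log2 fold changes of 0.10 and -0.07, and TPI1, the triose phosphate isomerase, 0.06. ALDOC, an aldolase, had log2 levels of -0.25, 0.17, -0.54 and 0.70 with control siRNA and 0.30, -0.45, 0.59 and 0.35 with KHSRP siRNA, which spread over 1.24 on the log2 scale with overlapping groups and differed by 0.18 (adjusted p = 0.84). PFKFB3 and PFKFB4 set the level of a sugar bisphosphate that activates phosphofructokinase. PFKFB3 had a log2 fold change of 0.22 and was higher in 4 of 4 pairs (adjusted p = 0.654, and 0.0474 with the pair as a block), and PFKFB4 one of 0.01, which turned to -0.07 with median scaling.

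The payoff phase, which yields ATP and pyruvate, was covered by 6 tested genes, of which PGK1 was higher with KHSRP siRNA and 5 were lower, with a median log2 fold change of -0.07 (PGAM1 turned from lower to higher under quantile normalization and normexp). None was called by limma without a block, and 0 had an unadjusted p under 0.05. ENO2, the enolase typical of neurons and also expressed in many tumors, had log2 levels of 0.78, 1.26, -0.17 and 1.24 with control siRNA and 0.37, 0.53, 0.89 and -0.51 with KHSRP siRNA. Control replicate 3 and KHSRP siRNA replicate 4, the arrays of pair 3, were the lowest of their groups, and the groups overlapped. The log2 fold change was -0.45 with an SE of 0.39 (adjusted p = 0.611), and the KHSRP siRNA array was lower in 4 of 4 pairs by 0.34 to 0.73 on the log2 scale (adjusted p = 0.0166 with the pair as a block). Without 1 array the log2 fold change ran from -0.77 (control replicate 3 left out) to -0.18 (KHSRP siRNA replicate 4 left out). ENO1, the widespread enolase, had a log2 fold change of -0.27 (adjusted p = 0.464).

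GAPDH is the dehydrogenase whose mRNA the study used to normalize its quantitative PCR of mRNAs and primary microRNA transcripts. Its log2 levels were 7.57, 7.82, 7.23 and 7.85 with control siRNA and 7.54, 7.65, 7.74 and 7.23 with KHSRP siRNA. Control replicate 3 and KHSRP siRNA replicate 4, the arrays of pair 3, were the lowest of their groups and lay at nearly the same level, and the mean differed between groups by -0.08 with an SE of 0.18 (adjusted p = 0.888, and 0.407 with the pair as a block). PGK1, a kinase of the ATP-yielding steps, had a log2 fold change of 0.16. PGAM1 and PKM, the mutase and the pyruvate kinase that follow, had log2 fold changes of -0.03 and -0.06, and a second PGAM1 probe was at 0.002.

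Pyruvate and lactate handling held 5 tested genes, 4 of them higher with KHSRP siRNA. None was called by limma without a block, and 2 had an unadjusted p under 0.05. LDHA, the lactate dehydrogenase subunit that favours lactate formation, had log2 levels of 6.74, 6.61, 6.51 and 6.66 with control siRNA and 7.15, 6.90, 6.78 and 7.20 with KHSRP siRNA. All 4 KHSRP siRNA arrays lay above the controls, and the log2 fold change was 0.38 with an SE of 0.13 (adjusted p = 0.147, and 0.0463 with the pair as a block). A second LDHA probe also separated the groups, which differed by 0.52 on the log2 scale (adjusted p = 0.0715, and 0.0254 with the pair as a block). LDHB, the subunit that favours the reverse reaction, had a log2 fold change of -0.23 (adjusted p = 0.583) and was lower in 4 of 4 pairs. A second LDHB probe was noisy, with a within-group SD of 1.02 on the log2 scale.

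PDK1, a kinase that holds pyruvate dehydrogenase inactive and so keeps pyruvate out of mitochondria, had log2 levels of -0.02, -0.47, 0.27 and 0.06 with control siRNA and 0.54, 0.07, 0.33 and 0.79 with KHSRP siRNA. Control replicate 3 lay within the range of the KHSRP siRNA arrays, whereas the KHSRP siRNA array was higher in every pair by 0.27 to 0.56 on the log2 scale. The log2 fold change was 0.47 with an SE of 0.20 (adjusted p = 0.248, and 0.0095 with the pair as a block). SLC16A1 and SLC16A3, transporters of lactate, had log2 fold changes of 0.13 and 0.15, and the sign differed between pairs for both.

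The 4 members that sense oxygen or form HIF alpha subunits were higher with KHSRP siRNA, with a median log2 fold change of 0.44, and EGLN1 was called. Of 32 other HIF pathway genes tested, which are no members, 17 were higher and 15 lower. The groups did not overlap in 4 of the higher and 6 of the lower genes. EGLN2, ARNT and ARNT2 were among these 6 and are given with the other pathway genes. HIF1AN, CUL2 and VHL were higher with overlapping groups, by 0.46, 0.34 and 0.24 on the log2 scale. Their adjusted p was 0.194, 0.388 and 0.622 by limma, and 0.0083, 0.0384 and 0.0474 with the pair as a block. EGLN1, which hydroxylates HIF alpha subunits for degradation, had log2 levels of 1.71, 1.85, 1.75 and 1.97 with control siRNA and 2.24, 2.38, 2.27 and 2.36 with KHSRP siRNA. The lowest KHSRP siRNA array was above the highest control, and the log2 fold change was 0.49 with an SE of 0.11 (adjusted p = 0.0341, and 0.0085 with the pair as a block). The difference was 0.53 on the first slide and 0.45 on the second. Without control siRNA replicate 4 the gene was still called (adjusted p = 0.0451), and without any of the other 7 arrays it was not, with log2 fold changes of 0.46 to 0.54 and adjusted p up to 0.113 over the 8 omissions.

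EPAS1, the alpha subunit of the second HIF, had log2 levels of 2.52, 2.48, 2.44 and 2.36 with control siRNA and 2.73, 3.16, 2.98 and 2.77 with KHSRP siRNA. Its groups did not overlap, and the log2 fold change was 0.46 with an SE of 0.13 (adjusted p = 0.0763, and 0.0227 with the pair as a block). HIF1A, the alpha subunit of the first HIF, had log2 levels of 1.41, 1.57, 1.14 and 1.74 with control siRNA and 1.79, 1.69, 1.71 and 1.47 with KHSRP siRNA. The groups overlapped and differed by 0.21 on the log2 scale (adjusted p = 0.535), and a second probe gave 0.29. EGLN3, a hydroxylase that HIFs are known to induce, had log2 levels of -2.71, -3.01, -2.39 and -2.39 with control siRNA and -2.23, -2.76, -2.44 and -1.43 with KHSRP siRNA. The difference of 0.41 with an SE of 0.28 (adjusted p = 0.505) rested largely on KHSRP siRNA replicate 4, without which it was 0.15.

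**Figure D2:**
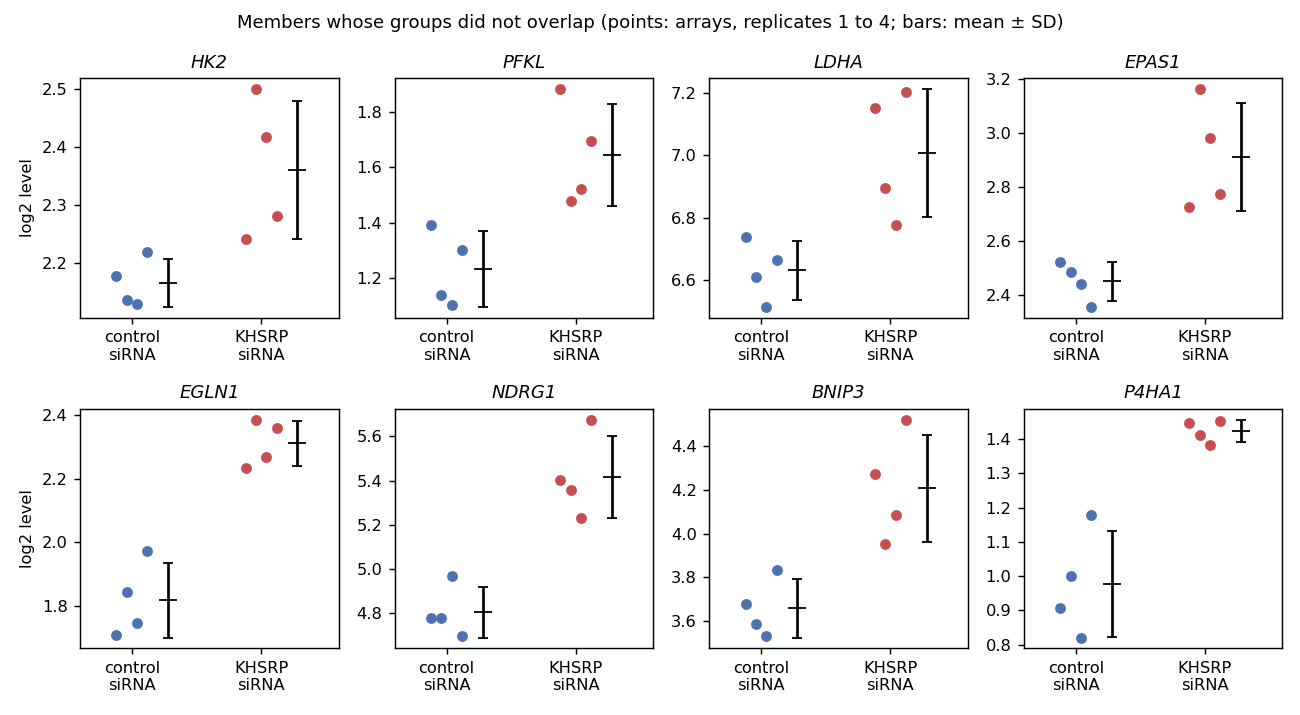
Log2 level on each array (points, replicates 1 to 4 from left to right) of the 8 members whose groups did not overlap, with the mean and SD of each group of 4 as bars; the vertical axes differ between panels and do not start at 0. In each panel the lowest KHSRP siRNA point lies above the highest control point, by a wide margin in EGLN1 and NDRG1 and a narrow one in HK2 and LDHA.

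Among the 10 tested HIF target genes 7 were higher and 3 lower (VEGFA turned to lower with median scaling and ANKRD37 with normexp), and the median log2 fold change was 0.09, or -0.03 without control siRNA replicate 3. NDRG1 had log2 levels of 4.78, 4.78, 4.97 and 4.70 with control siRNA and 5.40, 5.36, 5.23 and 5.67 with KHSRP siRNA. KHSRP siRNA replicate 4 was the highest array, and even the lowest KHSRP siRNA array, replicate 3, exceeded control replicate 3, the highest control. The log2 fold change was 0.61 with an SE of 0.13 (adjusted p = 0.0304, and 0.0031 with the pair as a block), and the difference was 0.60 on the first slide and 0.62 on the second. NDRG1 remained called without control siRNA replicate 3 (adjusted p = 0.0449) or KHSRP siRNA replicate 3 (0.0391), and not without any of the other 6 arrays, with log2 fold changes of 0.53 to 0.67 and adjusted p up to 0.0954.

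BNIP3, which takes part in the removal of mitochondria, had log2 levels of 3.68, 3.59, 3.53 and 3.84 with control siRNA and 4.27, 3.95, 4.08 and 4.52 with KHSRP siRNA. The KHSRP siRNA arrays spread from just above the highest control to well above it, and the log2 fold change was 0.55 with an SE of 0.15 (adjusted p = 0.0719, and 0.0298 with the pair as a block). P4HA1, a subunit of the collagen prolyl hydroxylase, had log2 levels of 0.91, 1.0, 0.82 and 1.18 with control siRNA and 1.45, 1.41, 1.38 and 1.45 with KHSRP siRNA. Its KHSRP siRNA arrays lay close together and above every control, and the log2 fold change was 0.45 with an SE of 0.11 (adjusted p = 0.0566, and 0.0169 with the pair as a block). P4HA1 was called in 6 of 23 alternatives, the pair block among them, and in none of the 8 that left out 1 array, and the adjusted p ranged up to 0.314, with median scaling.

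Other well-known HIF targets did not pass the test in the fit without a block. VEGFA, the growth factor of blood vessels, had log2 levels of 1.41, 1.13, 1.92 and 1.61 with control siRNA and 1.58, 1.05, 1.45 and 2.18 with KHSRP siRNA. Pair 3 was the highest in both groups and pair 2 the lowest, and the log2 fold change was 0.05 (adjusted p = 0.954, and 0.716 with the pair as a block). A dimmer VEGFA probe gave 0.40 (adjusted p = 0.705, and 0.0194 with the pair as a block). CA9, a carbonic anhydrase widely used as a marker of hypoxia, reached the limit for a probe well above background on 0 of 8 arrays and was not tested, and its log2 level lay between -5.66 and -4.80. ADM, the peptide adrenomedullin, and P4HA2 had log2 fold changes of -0.20 and -0.25, neither called.

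BNIP3L, a relative of BNIP3, had log2 levels of 0.94, 1.36, 0.89 and 1.92 with control siRNA and 1.16, 1.04, 1.89 and 1.42 with KHSRP siRNA. Replicate 4 of the control and replicate 3 of the KHSRP siRNA arrays, pair 4, were the highest, and the groups overlapped (log2 fold change 0.10, adjusted p = 0.907). A second, dimmer BNIP3L probe gave 0.29 and was higher in 4 of 4 pairs (adjusted p = 0.423 by limma, and 0.0728 with the pair as a block). ANKRD37, an ankyrin repeat protein, had log2 levels of -0.84, -0.32, -1.43 and -0.36 with control siRNA and -0.98, -0.24, -0.33 and -1.07 with KHSRP siRNA. Pair 3 was the lowest in both groups, and the difference was 0.08 (adjusted p = 0.933). ANGPTL4, an inhibitor of lipoprotein lipase, was at 0.10, and KDM3A, a histone demethylase, at -0.22. KDM3A was well above background on 4 control arrays and 2 KHSRP siRNA arrays, so that it entered the test through the control group alone. ALDOA was the member with no probe under the rule.

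Of the 36 tested members, 13 were higher and 6 lower with KHSRP siRNA in 4 of 4 pairs, beside 25.8% of all tested probes higher and 25% lower. Of the 7 genes with a second tested probe, 6 had the same sign on both probes.

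Members differed in how far they varied between arrays of the same group. Their median within-group SD was 0.26 on the log2 scale, and that of all tested probes was also 0.26. SLC2A1, with an SD of 0.71, was at the 93.1st percentile of all tested probes, and its level differed by 3.54-fold between the lowest and the highest of the 8 arrays. ENO2 followed with an SD of 0.63 and a 3.42-fold range, and then ALDOC (0.50), ANKRD37 (0.48), EGLN3 (0.45) and BNIP3L (0.43). At the other end were HK2 with 0.09, EGLN1 and PFKM with 0.10 each, and P4HA1 with 0.11.

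Much of this variation was shared within pairs. An F test of pair in limma, with group in the model, called 14 of 36 members (38.9%), a share near that of all tested probes (41.5%). They were SLC2A1, HK1, PFKFB3, PFKFB4, GAPDH, PGAM1, ENO2, PKM, LDHB, PDK1, SLC16A1, VEGFA, ANKRD37 and ANGPTL4. None of the 8 members whose groups did not overlap was among them, but absence of overlap needs a small spread within groups, and over all tested probes the test called 12.98% of those without overlap and 46.5% of the rest. Over all tested probes the deviations of the arrays of a pair from their group means correlated at 0.52, 0.43, 0.83 and 0.84 in pairs 1 to 4, and over the 36 members at 0.75, 0.64, 0.83 and 0.86, so that the F test describes variation that also served to recognise the pairs. When the slide took the place of the pair, 0 of 36 members and 0 of 18760 probes were called by the F test in limma.

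The pairs did not shift the members in 1 direction. SLC2A1 and HK1 were highest in pair 3 and lowest in pair 4, and PDK1 and VEGFA were highest in pair 3 and lowest in pair 2. ENO2, PFKFB4, GAPDH and SLC16A1 were highest in pair 4 and lowest in pair 3, whereas ANKRD37, ANGPTL4, PFKFB3 and PGAM1 were highest in pair 2 and lowest in pair 3. Over the 14 members, pair 3 was the lowest in 8 and the highest in 4, and pair 1 was the lowest in 1 and the highest in 1.

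**Figure D3:**
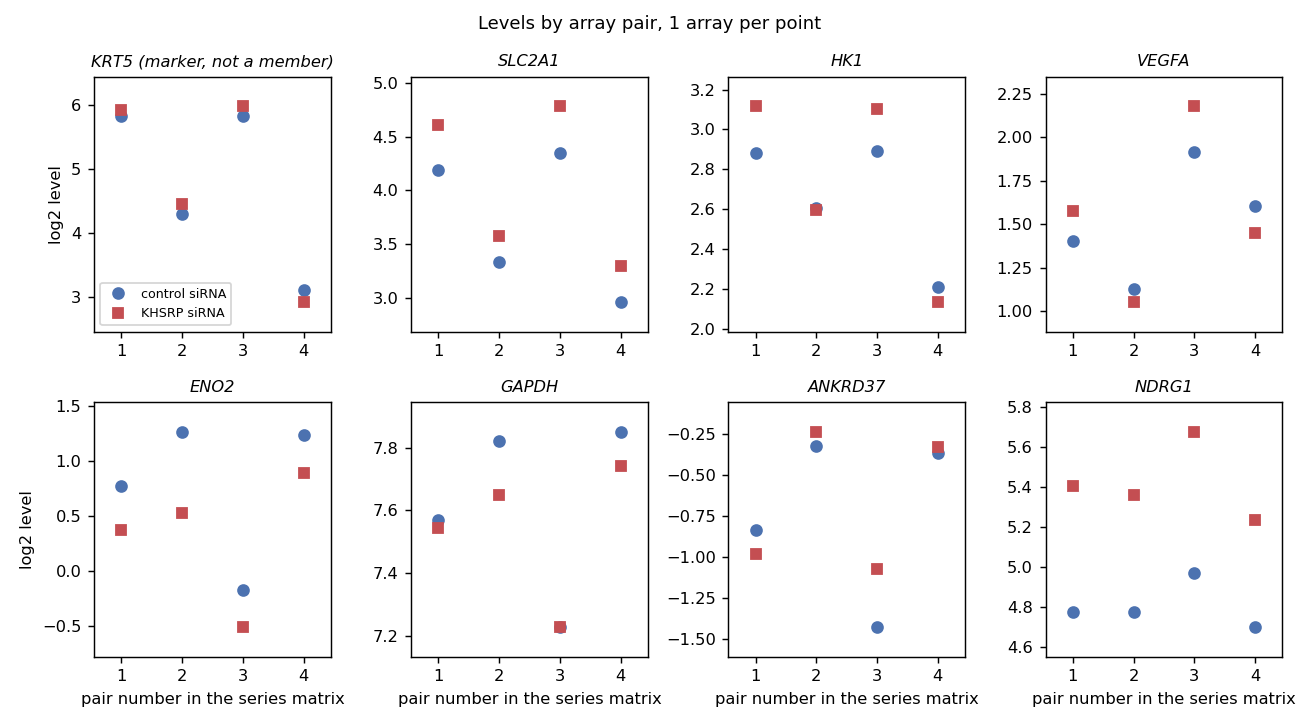
Log2 level on each array (vertical axis, differing between panels) by array pair (horizontal axis) for KRT5, a squamous marker that is no member, and 7 members; circles are control siRNA and squares KHSRP siRNA, 1 array each. SLC2A1 is high in pairs 1 and 3 and low in pairs 2 and 4 in both groups, ENO2 and GAPDH are lowest in pair 3, and NDRG1 is higher with KHSRP siRNA in all 4 pairs.

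**Figure D4:**
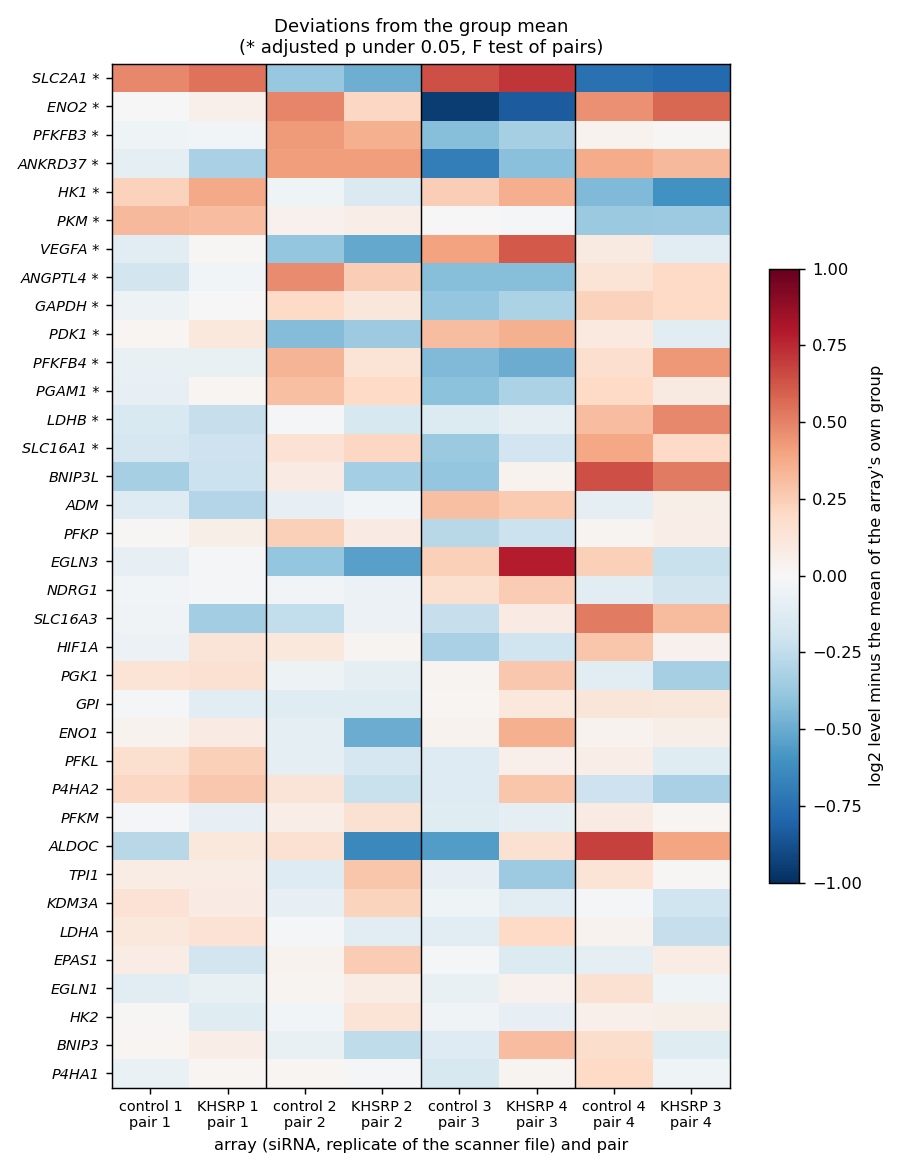
Log2 level minus the mean of the array's own group (colour, from -1 to 1) for the 36 tested members (rows, in rising order of the p of the F test of pairs) on the 8 arrays, set side by side by pair; an asterisk marks the 14 members called by the F test of pairs. Both arrays of a pair mostly share a colour in the upper rows, as in SLC2A1 and ENO2, and the lowest rows, with EGLN1, HK2, BNIP3 and P4HA1, are pale on most arrays.

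Markers of squamous epithelium, the tissue of origin of the line, moved with the same arrays. All 8 were tested, and the F test of pairs called 7 of them, while limma called none for the siRNA (1, CDH1, had an unadjusted p under 0.05). With the pair as a block, CDH1 was called higher and DSG3 lower. KRT5, a basal keratin, had log2 levels of 5.84, 4.30, 5.84 and 3.11 on control siRNA replicates 1 to 4 and of 5.92, 4.47, 2.92 and 5.98 on KHSRP siRNA replicates 1 to 4. The summed signal of the 8 markers was 175 to 566 over the control arrays and 202 to 641 over the KHSRP siRNA arrays, in units of the signal at each array's 75th percentile, and it was high on the arrays of pairs 1 and 3, where SLC2A1 was high. Their within-group SDs ran from 0.27 to 1.39 on the log2 scale. Fewer cells of a kind and less mRNA per cell cannot be told apart in such bulk samples, and the part of this variation in the members' levels was not tested. Of 6 fibroblast markers COL1A1 was tested and the other 5 were well above background on 0 arrays, as were all 5 endothelial markers, and of 5 leukocyte markers CD14 alone was tested and ITGAM was well above background on 0 arrays.

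Other genes of the same pathways were also measured. From lists of further glycolysis and pyruvate genes, further HIF pathway genes and tricarboxylic acid cycle enzymes, 73 of 87 genes were tested, 37 higher and 36 lower with KHSRP siRNA, with a median log2 fold change of 0.005. Of these 73 genes 4 were higher and 9 lower without overlap between the groups, beside 6.09% and 8.69% of all tested probes. At an unadjusted p under 0.05 by limma were 18 of the 73, of which 6 were higher. Of all tested probes 8.82% were higher and 10.8% lower at that p. KDM4B, a histone demethylase that HIFs induce, rose by 0.89 with an SE of 0.14 (adjusted p = 0.0109), and the study also picked it as a predicted microRNA target on these arrays. ARNT, the beta subunit that pairs with both HIF alpha subunits, fell by 0.56 on the log2 scale with an SE of 0.13 (adjusted p = 0.0418). Its probe was dim, well above background on 4 control and 3 KHSRP siRNA arrays, so that it entered the test through the control group alone, and the call held in 7 of 21 alternatives and in none of the 8 that left out 1 array. EGLN2, another HIF prolyl hydroxylase, had a log2 fold change of -0.38 with an SE of 0.11 (adjusted p = 0.0933, and 0.0154 with the pair as a block), and ARNT2, a relative of ARNT, one of -0.31 (adjusted p = 0.158, and 0.051 with the pair as a block). Of 25 tested glycolysis and pyruvate genes and 16 tricarboxylic acid cycle genes limma called 0, with 5 and 1 at an unadjusted p under 0.05. Of the 32 tested HIF pathway genes 12 were at that p, 5 of them higher. The difference between the lists was not tested. With the pair as a block 29 of the 73 were called, 15 higher and 14 lower, beside 14.8% and 15.3% of all tested probes. The F test of pairs called 33 (45.2%, beside 41.5%).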

How the data were processed

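KYSE850 mRNA was measured on 8 Agilent arrays, 4 with control siRNA and 4 with KHSRP siRNA, grouped by their labels. The deposited scanner files hold each spot's fluorescence intensity, background-subtracted and detrended by the authors' scanner software (Agilent Feature Extraction 12.6 per the labels, 11.5.1.1 per the file headers). The RNA kit differs between the labels (RNeasy) and the methods (RNA-Iso Plus). The authors also deposited a series matrix of log2 values, in which the columns of KHSRP siRNA replicates 3 and 4 match each other's scanner files (r = 1.0, against -0.38 with their own), and it served as an alternative. Its column medians run from -0.25 to 0.22, and how its probes were centred is not given in the sources used here.

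Control spots and spots marked as outliers were left out, log2 intensities were averaged per probe, and each array's 75th percentile was subtracted. Testing required that, on all 4 arrays of at least 1 group, a share of 0.5 or more of the spots of a probe stood well above background, and the brightest tested probe stood for a gene. Between 45.1% and 49.4% of 42405 probes were well above background on an array, and the number of arrays limits the precision. RefSeq accessions were matched to symbols of GRCh38.p14 for 27237 probes (64.2%). The comparison of groups used R 4.3.3 and limma 3.58.1 (lmFit and eBayes, two-sided), without a block and with Benjamini-Hochberg adjustment over 18760 probes, and again with the array pair as a block. Pairs were numbered as in the series matrix, since all 4 pairs deviated together (r from 0.43 to 0.84). By the scanner file numbers the r of pairs 3 and 4 was -0.67 and -0.64. Differences between pairs were tested with the F test of limma, with group in the model. Fits were tested on simulated data, and other steps used Python 3.11.15.

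All members are named. Values on every array are given for KHSRP, called members, the 6 members with the largest within-group SD, a fixed set of well-known members and, added after the values were seen, the other members whose groups did not overlap, HK1, BNIP3L and ANKRD37. Members and lists were chosen with earlier results of these data known. Alternatives covered scaling, background correction, probe filters, weights, slide and pair blocks, the methods' t-test and leaving out each array in turn.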

Additional observations from a re-analysis of the deposited data

Results flagged for a closer look

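Each member was checked in each group of 4 arrays for a single array set apart from the rest by most of the range of the group. This was found in 3 of 74 cases, and chance gives it in about 1 in 20. PFKP, a phosphofructokinase isoform, was low on KHSRP siRNA replicate 4, at a log2 level of 5.61 against 5.88 for the nearest array, a gap of 0.924 of the range. Without that array the log2 fold change was 0.001 (adjusted p = 0.999 by limma). ENO1, the widespread enolase, was low on control siRNA replicate 2, at 7.02 against 7.14 and with a gap of 0.985 of the range, and without it the log2 fold change was -0.31 (adjusted p = 0.543 by limma). ADM, which encodes adrenomedullin, was high on control siRNA replicate 3, at 5.58 against 5.20 and with a gap of 0.891 of the range, and without it the log2 fold change was -0.10 (adjusted p = 0.78 by limma).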

How the results depend on the processing

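The number of members called without a block was 2. It was 0 with median scaling, 0 without a filter on dim probes, 4 with normexp background correction, and 0 to 1 when 1 array was left out. With the pair of the series matrix numbers as a replicate block it was 11, and with the numbers of the scanner files as the block it was 0. The call of EGLN1 held in 13 of 23 alternatives and that of NDRG1 in 14 of 23. Among the 73 tested genes of the other pathway lists 2 were called, against 0 with median scaling, 4 with the methods' t-test, 0 without the filter, 1 with quantile normalization, 4 with the slide as a block, 1 when every array had to be well above background, and 1 to 2 when 1 array was left out. The replicate block gave 29 by the series matrix numbers and 0 by those of the scanner files. The F test of pairs called 14 members, 2 without the filter, 0 by the scanner file numbers, 0 for the slide, 21 with median scaling, 20 with normexp and 7 to 15 when 1 array was left out.

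KHSRP was called in 21 of 21 alternatives, with a log2 fold change from -3.46 to -3.22. Of 827 values of single members under 24 alternatives 33 changed sign, in 12 members whose log2 fold change was at most 0.18 in size. Leaving out 1 array moved the log2 fold change by over 1.5 times in 25 of 36 members, 13 of them with the sign kept. With median scaling TPI1 went to -0.0090, PFKFB4 to -0.066 and VEGFA to -0.024. PGAM1 went to 0.0034 with normexp and 0.0074 with quantile normalization, and ANKRD37 to -0.00099 with normexp. When 1 array was left out the log2 fold change ran from -0.057 to 0.29 for HK1, -0.028 to 0.19 for TPI1, -0.14 to 0.17 for PFKFB4, -0.15 to 0.22 for ANKRD37, -0.19 to 0.057 for PKM, -0.071 to 0.32 for BNIP3L, -0.16 to 0.0087 for PFKP, -0.21 to 0.027 for GAPDH, -0.17 to 0.073 for PGAM1, -0.15 to 0.22 for VEGFA, -0.0058 to 0.41 for ALDOC and -0.039 to 0.26 for ANGPTL4. The median log2 fold change was 0.04 to 0.13 over the glycolysis genes and -0.03 to 0.20 over the HIF targets, and the median within-group SD 0.21 to 0.30. No alternative moved the median of all genes by over 0.1 on the log2 scale. The cause of these changes was not tested. The dim probe of KDM3A, well above background on 2 of 4 KHSRP siRNA arrays, lies near background, where a fold change is uncertain. EGLN3 was well above background on all 8 arrays but was also dim, with a mean log2 level of -2.42.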
